A study of Mus musculus with 6 samples.

Results

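The small nucleolar RNA (snoRNA) host genes described here are 10 mouse genes that make a spliced RNA with no long reading frame: Gas5, Snhg1, Snhg3, Snhg5, Snhg6, Snhg8, Snhg12, Snhg15, Snhg17 and Snhg20. They were chosen by gene symbol among the 55740 gene models of the deposited table, and each symbol matched 1 model. The cells were bone marrow-derived dendritic cells of C57BL/6J mice, antigen-presenting cells grown in culture from bone marrow. In 3 samples the cells had received phosphate-buffered saline (PBS) for 6 h. In the other 3 they had received the amino acid lysine at 18 mM for 6 h. The labels give no genetic change, no further stimulus and no age or sex. RNA abundance was given as TPM, a length-scaled share of all transcripts, so that levels can be set side by side between genes.

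The introns of a snoRNA host gene carry snoRNAs, small RNAs that are trimmed from the spliced-out introns and guide the ribose methylation (C/D box class) or the conversion of uridine to pseudouridine (H/ACA box class) of ribosomal and other RNAs. Its exons are joined into a polyadenylated RNA, which ribosomes engage on a short reading frame and which nonsense-mediated decay (NMD), the pathway that removes RNAs whose stop codon lies upstream of an exon junction, is known to degrade. Many of these genes start with a run of pyrimidines, the 5′ terminal oligopyrimidine (5′TOP) element of ribosomal protein genes.

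The structures of the 10 genes were read from the GENCODE M21 annotation of GRCm38. Gas5 (growth arrest specific, an RNA known to accumulate in cells that stop growing; chr1:161034422-161038539, plus strand) held 9 snoRNA loci in 4118 bp, and Snhg1 (chr19:8723475-8726443, plus strand) held 8 in 2969 bp. Snhg12 (chr4:132308623-132311024, plus strand) held 4. Its neighbour Snhg3 (chr4:132348014-132353686, minus strand), which lies 36989 bp away, held 2. Snhg17 (chr2:158353700-158361580, minus strand) held 3 and Snhg5 (chr9:88521050-88522929, minus strand) held 2. A single snoRNA locus lay in Snhg6 (chr1:9941959-9944118, minus strand), in Snhg8 (chr3:123507552-123508404, minus strand) and in Snhg15 (chr11:6525591-6528760, minus strand). Snhg20 (chr11:117076008-117078955, plus strand) held 1 small Cajal body RNA, a relative of the snoRNAs that guides the modification of spliceosomal RNAs. In all, 34 annotations at 32 loci lay within the 10 genes. Of these annotations, 29 lay outside the exons of the longest spliced transcript and 5 overlapped one of its exons, among them Snora9 in Snhg15.

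**Figure D1:**
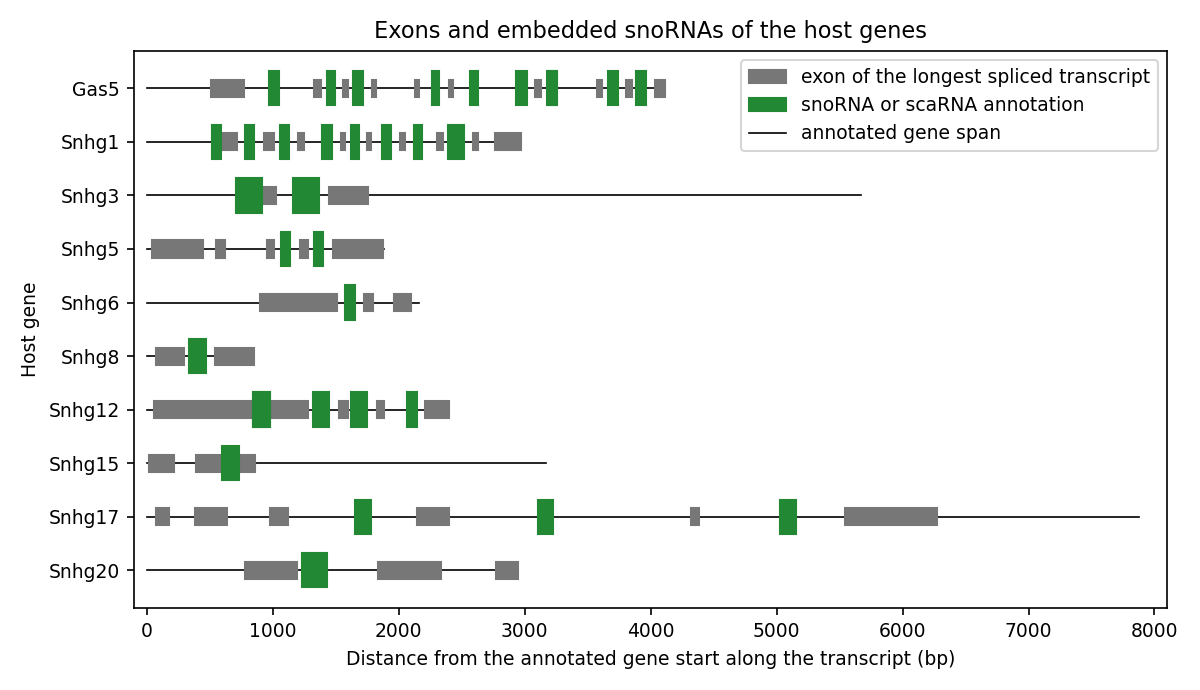
Map of the 10 host genes, drawn to scale in bp from the annotated start of each gene along the transcribed strand. Grey boxes are exons of the longest spliced transcript, green boxes are snoRNA or scaRNA annotations and the thin line is the annotated gene span. Gas5 with 9 snoRNA loci and Snhg1 with 8 alternate short exons with snoRNAs, and Snhg6, Snhg8, Snhg15 and Snhg20 hold 1 each.

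Embedded snoRNAs are shown for the hosts with the largest response to lysine and for the most abundant one. Snord99 and Snora61 lie in Snhg12 (chr4:132310691-132310764 and chr4:132310240-132310369, plus strand), Snora9 in Snhg15 (chr11:6528033-6528165, minus strand; inside an exon of the transcript drawn) and Snord47 in Gas5 (chr1:161038082-161038158, plus strand). The sequences are those of the GENCODE M21 annotation on GRCm38. Capitals mark TGATGA and CTGA, the core of the C and D boxes, in the C/D box RNAs, and the ACA near the 3′ end in the H/ACA box RNAs.
Snord99: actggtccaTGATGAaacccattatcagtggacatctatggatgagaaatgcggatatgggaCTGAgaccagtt
Snord47: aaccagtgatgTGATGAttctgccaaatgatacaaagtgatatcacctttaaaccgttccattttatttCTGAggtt
Snora61: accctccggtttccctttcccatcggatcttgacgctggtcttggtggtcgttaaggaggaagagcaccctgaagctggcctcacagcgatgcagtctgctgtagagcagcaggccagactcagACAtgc
Snora9: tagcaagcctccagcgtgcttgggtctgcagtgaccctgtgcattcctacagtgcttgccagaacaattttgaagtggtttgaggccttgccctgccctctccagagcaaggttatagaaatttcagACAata
Snord99 (74 nt) and Snord47 (77 nt) have their boxes towards the ends, and the H/ACA box RNAs Snora61 (130 nt) and Snora9 (133 nt) are longer.

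The starts of 5 hosts are shown because their RNAs changed with lysine, 4 upward and 1 downward. Each window runs from 250 bases before to 50 bases after the annotated start (RefSeq, GRCm38.p6), and positions are counted from 0 at the start. Capitals mark the longest run of C and T of at least 6 bases that begins within 25 bases of the start, and the searched motifs. Snhg12 is chr4:132308428-132308727 and Snhg1 is chr19:8723237-8723536 on the plus strand. Snhg15 is chr11:6528711-6529010 on the minus strand. Gas5 is the downstream of its 2 starts, chr1:161034916-161035215, and Snhg20 is chr11:117076533-117076832, both on the plus strand.
Snhg12: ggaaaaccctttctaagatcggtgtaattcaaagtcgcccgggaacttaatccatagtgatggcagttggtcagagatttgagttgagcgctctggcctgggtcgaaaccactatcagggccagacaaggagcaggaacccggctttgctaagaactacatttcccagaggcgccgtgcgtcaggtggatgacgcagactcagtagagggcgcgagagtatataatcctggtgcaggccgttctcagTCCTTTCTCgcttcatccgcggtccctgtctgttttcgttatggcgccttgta
Snhg1: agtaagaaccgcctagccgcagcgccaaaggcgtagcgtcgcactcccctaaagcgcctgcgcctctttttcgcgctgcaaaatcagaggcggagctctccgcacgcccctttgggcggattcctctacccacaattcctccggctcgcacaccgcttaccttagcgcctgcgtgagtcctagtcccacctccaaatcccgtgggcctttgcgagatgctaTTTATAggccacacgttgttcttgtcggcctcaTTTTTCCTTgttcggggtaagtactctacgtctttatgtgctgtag
Snhg15: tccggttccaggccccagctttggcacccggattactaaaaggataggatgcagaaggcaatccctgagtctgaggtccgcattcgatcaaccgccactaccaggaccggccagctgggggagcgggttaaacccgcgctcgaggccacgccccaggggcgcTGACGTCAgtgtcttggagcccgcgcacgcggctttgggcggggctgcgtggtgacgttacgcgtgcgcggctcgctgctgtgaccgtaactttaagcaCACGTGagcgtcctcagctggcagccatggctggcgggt
Gas5: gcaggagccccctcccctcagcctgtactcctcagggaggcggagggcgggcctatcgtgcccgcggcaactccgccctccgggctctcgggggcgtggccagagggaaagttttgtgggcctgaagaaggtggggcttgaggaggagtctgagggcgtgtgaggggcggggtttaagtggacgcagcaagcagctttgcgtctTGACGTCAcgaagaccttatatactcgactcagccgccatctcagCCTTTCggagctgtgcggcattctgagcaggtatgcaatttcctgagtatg
Snhg20: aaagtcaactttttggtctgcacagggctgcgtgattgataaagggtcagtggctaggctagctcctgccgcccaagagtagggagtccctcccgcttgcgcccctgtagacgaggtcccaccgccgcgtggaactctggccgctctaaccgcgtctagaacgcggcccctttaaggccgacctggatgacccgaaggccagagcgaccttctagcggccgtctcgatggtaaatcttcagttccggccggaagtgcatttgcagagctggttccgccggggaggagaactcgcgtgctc
The table of promoters matched 9 of the 10 hosts, with 11 windows in all. Snhg12 and Snhg1 each held a pyrimidine run of 9 bases at the start, from -3 in Snhg12 and from 4 in Snhg1, a length reached by 13.3% of all 32851 windows. Gas5 held a run of 6 at its downstream start, whereas the longest runs were 4 in Snhg15 and 5 in Snhg20. A run of at least 6 was present in 7 of the 11 host windows and in 43.9% of all windows. Snhg17 is counted more than once among them, through overlapping windows (chr2:158361473-158361772 and chr2:158361460-158361759, minus strand) that both held such a run. Of the hosts whose RNAs were called higher, Snhg12, Snhg1, Gas5 and Snhg8 (a run of 7) held such a run and Snhg15 did not. Snhg20, called lower, held none. Of the hosts that did not pass the test, Snhg5 and Snhg17 held one, Snhg3 did not and Snhg6 had no window. A link between run and response was not tested.

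Short motifs were searched on both strands of the same windows. TGACGTCA, the cyclic AMP response element, lay at -46 in Gas5 and at -88 in Snhg15 and was present in 1.79% of all windows. CACGTG, the E-box, lay at 11 in Snhg15 and was present in 7.15% of all windows. TATAAA was found in 4 of the 11 host windows (Snhg1, Snhg3, Snhg5 and Snhg8) and in 13.6% of all. TGATGNAA was found in 0 of the 11 and in 3.97% of all. These matches describe letters in the window and are not evidence of binding.

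The reading frame from the first ATG was examined in each host's longest spliced transcript that the annotation does not class as retained intron. Its stop codon lay more than 50 nt upstream of the last exon junction in 10 of 10 hosts, against 6707 of 9421 (71.2%) other multi-exon non-coding genes of the annotation. The frame ran for 23 codons in Gas5, 7 in Snhg1, 54 in Snhg12, 35 in Snhg15 and 50 in Snhg20, and the remaining hosts had 1 to 41. The transcripts used for Snhg1 and Snhg3 begin 530 and 753 bp from the annotated gene start, within a snoRNA annotation. Their first ATG may therefore not be that of an RNA from the gene start, and the 10 of 10 include them. The distance from stop to last junction was shortest in Snhg15, at 68 nt, and longest in Snhg12, at 1143 nt. Both of these hosts rose more than 2-fold with lysine. In both, an exon of the transcript used holds a snoRNA annotation, Snora9 in Snhg15 and Snora16a in Snhg12. Intron sequence may thus be part of these transcripts, and the distances hold for them only.

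Of 12539 gene models tested with limma on log2(TPM + 1), 25.8% were called higher and 29.3% lower with lysine at an adjusted p under 0.05, or 55.1% in all. Pearson correlations between samples were 0.974 to 0.982 within groups and 0.914 to 0.934 between groups. Whether the replicates are separate cultures or animals is not stated in the labels, and the p-values then cover only the sample-to-sample spread, which could be technical. TPM keeps no sequencing depth, and the depth is unknown. Of the dendritic cell markers, 2 of the 8 tested were lower with lysine (Ciita and Batf3), with summed levels of 3963 to 5877 TPM in PBS and 4224 to 5554 in lysine. Replicate 3 gave the highest sum in both groups, and Cd74 made up most of every sum. Cd74 was at 4141 TPM in PBS replicate 3 and at 4046 TPM in lysine replicate 3. In the other samples it was at 2735 to 3193 TPM. Of the macrophage markers 5 of 9 were lower, with sums of 797 to 843 TPM against 724 to 762. Of the neutrophil markers 1 of the 2 tested was lower (S100a8), with sums of 74.1 to 111 TPM against 33.8 to 39.8, and Elane was listed at 0 in all samples. Mast cell and basophil markers summed to 5.35 to 11.3 TPM against 3.92 to 5.10, with 1 of the 2 tested lower. T cell markers summed to 9.24 to 31.1 against 4.42 to 25.2 TPM, and B cell markers to 0.49 to 2.83 against 1.18 to 3.87 TPM. Both of these sums were highest in replicate 3 of each group. Erythroid markers summed to 0.27 to 3.32 against 0 to 0.32 TPM. The part of these cell types in the host gene results was not tested. In bulk samples, fewer cells of a type and less RNA per cell cannot be told apart.

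In lysine-treated cells, 5 of the 10 host RNAs were higher and 1 was lower, and 4 did not pass the test, against 25.8% higher, 29.3% lower and 55.1% called in either direction over all genes tested. The share called was thus close to the background, and the share called higher was above it. All 10 were tested, and the lowest value of any of them in any sample was 9.56 TPM. The samples of the groups did not overlap for the same 6 genes, 5 with lysine above and 1 below. Over all genes tested, 29.7% had all lysine samples above, 33.7% had all below and 63.4% had either. The median log2 fold change was 0.33 over the hosts and -0.05 over all genes tested. The host genes called higher held 23 of the 32 snoRNA and scaRNA loci, with 9 in Gas5 and 8 in Snhg1. This count describes the annotation and not the level of any snoRNA.

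**Figure D2:**
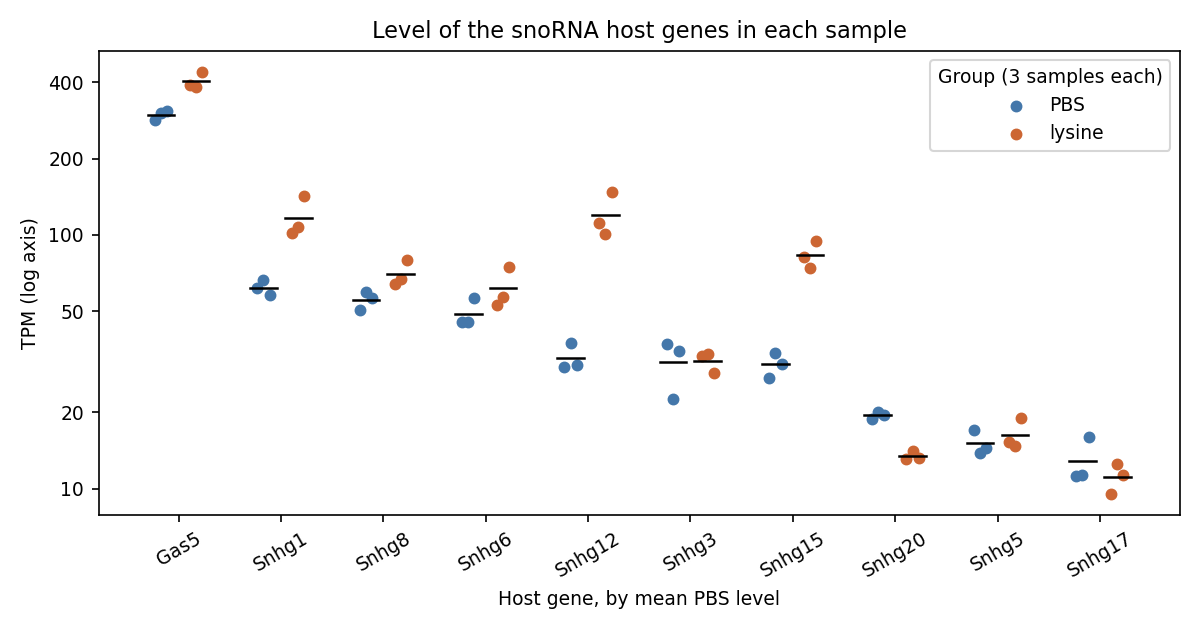
TPM of the 10 host genes in each sample, on a log axis, with genes ordered by their mean in PBS. Points are samples, 3 per group, and bars are group means. Snhg12 and Snhg15 show the widest separation, Gas5 is the most abundant in all 6 samples, and Snhg20 is the gene whose lysine samples all lie below PBS.

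Snhg12 showed the largest response. Its RNA stood at 30.3, 37.5 and 30.7 TPM in PBS replicates 1 to 3 and at 111, 101 and 148 TPM in lysine replicates 1 to 3. All lysine samples lay far above all PBS samples, and lysine replicate 3 was the highest. The mean rose from 32.8 ± 4.09 to 120.0 ± 24.7 TPM (SD, n = 3 each), with a log2 fold change of 1.83 ± 0.16 (SE) and a limma adjusted p of 0.000191. Here and below, log2 differences and fold changes are lysine minus PBS of log2(TPM + 1), with the SE of the limma fit, and they understate changes of low genes. Snhg12 moved from the fifth highest of the hosts in PBS to the second highest in lysine.

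Snhg15, whose human counterpart is known as a short-lived RNA that responds to chemical stress, followed. Its values were 27.3, 34.2 and 31.1 TPM in PBS and 81.7, 73.8 and 94.3 TPM in lysine. The lysine samples were all more than 2-fold above the highest PBS sample. The mean rose from 30.9 ± 3.45 to 83.3 ± 10.3 TPM (SD, n = 3 each; log2 fold change 1.40 ± 0.12, adjusted p = 0.000173).

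Snhg1, the host with the second largest set of snoRNAs, stood at 61.6, 66.6 and 57.8 TPM in PBS and at 102, 107 and 142 TPM in lysine. The groups were separate, with lysine replicate 3 again highest. The mean rose from 62.0 ± 4.42 to 117 ± 21.9 TPM (SD, n = 3 each; log2 fold change 0.89 ± 0.13, adjusted p = 0.00162).

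Gas5 was by far the most abundant host in both groups. It was measured at 284, 302 and 309 TPM in PBS and at 391, 384 and 439.9 TPM in lysine. No lysine sample fell within the PBS range. The mean rose from 298 ± 13.3 to 405 ± 30.3 TPM (SD, n = 3 each), which is a smaller relative change than in the hosts above (log2 fold change 0.44 ± 0.07, adjusted p = 0.00211) but the largest in TPM.

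Snhg8, a short host of Snora24, gave 50.5, 59.3 and 56.2 TPM in PBS and 64.2, 66.9 and 80.0 TPM in lysine. The groups were separate by a narrow margin. The mean rose from 55.3 ± 4.50 to 70.4 ± 8.43 TPM (SD, n = 3 each), with a log2 fold change of 0.34 ± 0.10 and a limma adjusted p of 0.0298. The call was lost without PBS replicate 1 (adjusted p = 0.0930), without PBS replicate 3 (0.0602), without lysine replicate 2 (0.0524) and with no filter on low values (0.0653). The other 4 called rises and the fall of Snhg20 passed under all 14 alternatives.

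Snhg20 went the other way. Its values were 18.8, 20.1 and 19.5 TPM in PBS and 13.0, 14.02 and 13.2 TPM in lysine, and replicates lay close together in both groups. The mean fell from 19.5 ± 0.658 to 13.4 ± 0.527 TPM (SD, n = 3 each; log2 fold change -0.50 ± 0.07, adjusted p = 0.00124). It is the host of a small Cajal body RNA rather than of a snoRNA.

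For 4 hosts the groups overlapped and the test was not passed. Snhg6, the host of Snord87, was at 45.3, 45.2 and 56.2 TPM in PBS and at 53.1, 56.8 and 75.1 TPM in lysine. Within each group replicate 3 was the highest, and lysine replicate 1 lay below PBS replicate 3 (log2 fold change 0.32 ± 0.15, adjusted p = 0.114). Snhg3, the host of Snora73a and Snora73b, was at 37.2, 22.5 and 34.8 TPM in PBS and at 33.2, 33.9 and 28.7 TPM in lysine. PBS replicate 2 was the lowest of the 6 samples, and the lysine values lay within the PBS range (0.05 ± 0.19, adjusted p = 0.855). Snhg5, the host of Snord50a and Snord50b, was at 17.1, 13.8 and 14.4 TPM in PBS and at 15.2, 14.7 and 19.0 TPM in lysine, with groups that interleaved (0.10 ± 0.13, adjusted p = 0.529). Snhg17 was at 11.2, 11.3 and 16.0 TPM in PBS and at 9.56, 12.5 and 11.3 TPM in lysine, with only PBS replicate 3 standing above the rest (-0.18 ± 0.16, adjusted p = 0.372).

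**Figure D3:**
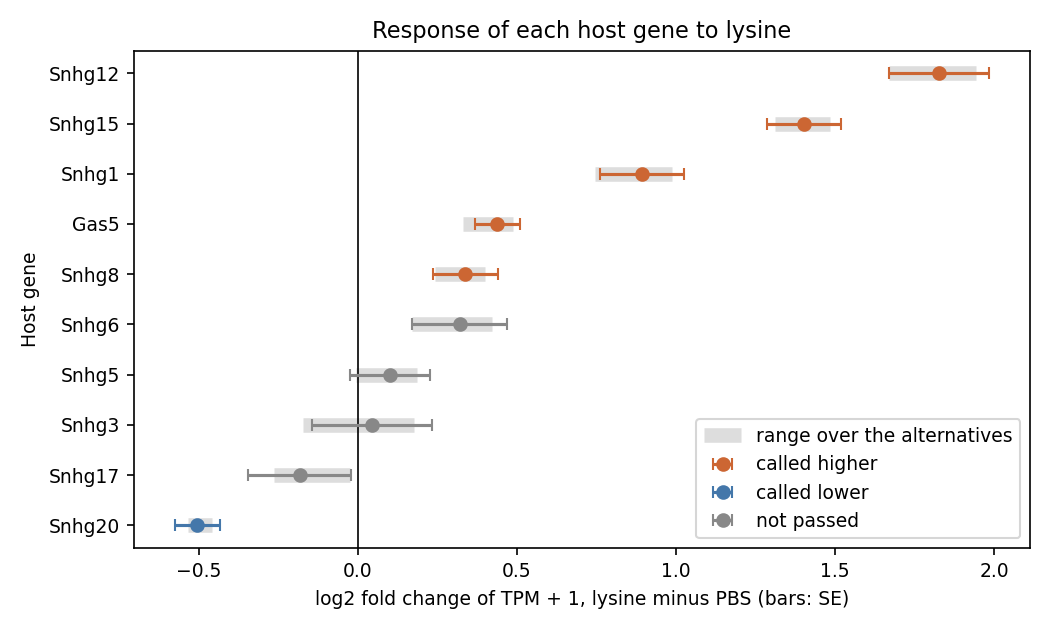
Log2 fold change of TPM + 1, lysine minus PBS, for each host gene. Points are limma estimates with SE bars, coloured by call, and grey bands span the estimates under the 14 alternatives. Snhg12 at 1.83 and Snhg15 at 1.40 stand furthest to the right, Snhg20 at -0.50 furthest to the left, and the bands of Snhg3 and Snhg5 cross 0.

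The order of the hosts by level changed between groups. In PBS, Gas5 stood alone at the top, followed by Snhg1, Snhg8 and Snhg6, whose neighbouring ranges overlapped, then by Snhg12, Snhg3 and Snhg15, which also overlapped, then by Snhg20, and last by Snhg5 and Snhg17, which overlapped. In lysine, Gas5 was followed by Snhg12 and Snhg1, which could not be separated by their ranges, then by Snhg15, Snhg8 and Snhg6, and then by Snhg3, Snhg5, Snhg20 and Snhg17 in that order, each separate from the next. Lysine replicate 3 was the highest of the lysine samples for 7 of the 10 hosts, compared with 45.4% of all genes tested.

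The 10 hosts together accounted for 583, 612 and 626 TPM in PBS and for 874, 865 and 1051.5 TPM in lysine. The lysine samples all lay above the PBS samples, and lysine replicate 3 stood apart from the other two. The mean sum was 607 ± 22.3 TPM in PBS and 930.2 ± 105 TPM in lysine (SD, n = 3 each), a 1.53-fold difference. The two-sided exact permutation p was 0.1, the smallest that 3 against 3 samples can give. Without Gas5 the sum went from 309 ± 8.99 to 525 ± 74.9 TPM, a 1.70-fold difference with the same exact permutation p. The share of Gas5 in the sum went from 49.1% ± 0.396 in PBS to 43.7% ± 1.59 in lysine (SD, n = 3 each), and every lysine sample was below every PBS sample.

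The genes next to each host were read beside it. Snhg1 starts 106 bp from Slc3a2 on the opposite strand. Slc3a2, the heavy chain of several amino acid transporters, was higher with lysine (426 ± 24.2 to 510 ± 31.7 TPM, log2 fold change 0.26 ± 0.07, adjusted p = 0.0173), although not without PBS replicate 2 (adjusted p = 0.0598). The ratio of Snhg1 to Slc3a2 went from 0.146 ± 0.0119 to 0.229 ± 0.0303 (SD, n = 3 each) with no overlap of the groups (exact permutation p = 0.1, the smallest possible). The start of Snhg15 lies 7795 bp from that of Myo1g, an unconventional myosin of blood cells, on the same strand. Myo1g fell (198 ± 23.9 to 117 ± 8.28 TPM, log2 fold change -0.75 ± 0.10, adjusted p = 0.000991), so the pair moved in opposite directions. The ratio of Snhg15 to Myo1g went from 0.158 ± 0.0246 to 0.711 ± 0.0387 (exact permutation p = 0.1). Since each gene alone separated the groups, in opposite directions, the ratio had to separate them and its test adds nothing.

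Snhg12 and Snhg3 are neighbours on chromosome 4 that differed in response. The ratio of Snhg12 to Snhg3 was 0.814, 1.67 and 0.880 in PBS and 3.36, 2.97 and 5.16 in lysine. No sample of the groups overlapped (exact permutation p = 0.1). Snhg3 overlaps Rcc1, the exchange factor of the GTPase Ran, on the same strand, and starts 81 bp from it. Rcc1 did not pass the test (adjusted p = 0.403), and the ratio of Snhg3 to Rcc1 was 2.44 ± 0.656 in PBS and 2.30 ± 0.335 in lysine (exact permutation p = 0.8). Gm17300, which overlaps Snhg3 on the opposite strand, was lower with lysine (2.77 ± 0.343 to 1.40 ± 0.305 TPM, adjusted p = 0.00935). Reads from the stretch that Snhg3 shares with Rcc1 cannot be assigned by strand, and the sources used here do not give the use of strand in the counting, so reads of Snhg3 and Gm17300 cannot be told apart either.

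The limit of unknown strand use applies also to Gas5 and Zbtb37, which overlap on opposite strands. Zbtb37 was at 1.57 to 2.72 TPM over the 6 samples and did not pass the test (adjusted p = 0.685). It applies likewise to Snhg6 and Mcmdc2, which was at 0.38 to 1.70 TPM and below the filter for the test. Sec14l1, whose start is nearest to that of Snhg20 among protein-coding genes at 39160 bp, rose from 30.3 ± 1.32 to 41.2 ± 3.39 TPM (log2 difference 0.43 ± 0.08, adjusted p = 0.00397), opposite to Snhg20. Zfp949, 25091 bp from Snhg5, rose (log2 fold change 0.67 ± 0.13, adjusted p = 0.00467). The nearest protein-coding starts to the remaining hosts belonged to Tcf24 for Snhg6, Prss12 for Snhg8, Rab42 for Snhg12 and Snhg11 for Snhg17, which were between 0 and 1.42 TPM in each sample and were not tested. The lincRNA model Gm23925, which overlaps Snhg17 on the same strand, was listed at 0 in all samples.

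The snoRNAs themselves were listed at 0 for the most part. Of the 29 annotations within the hosts that had a row, 22 were listed at 0 in all 6 samples, among them Snord99, Snora9 and Snord47. Only 10 of 174 values were above 0, and no snoRNA was above 0 in more than 2 samples. Snord22 in Snhg1 was listed at 18.4 TPM in PBS replicate 1 and at 156 TPM in lysine replicate 2, and at 0 in the rest. Snora61 in Snhg12 was listed at 18.6 TPM in PBS replicate 2 and at 0 in the rest. An exact 0 in TPM can be a failed estimate, so no change of a snoRNA was read from these values. The host values are gene-level TPM and do not separate fully spliced RNA from RNA that keeps an intron. The annotation classes 20 of 25 transcripts of Gas5 and 14 of 18 of Snhg1 as retained intron.

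Other genes with embedded snoRNAs were examined next. The list of other non-coding hosts matched 11 gene models, of which the annotation classes Snhg11 as protein-coding, and 9 were tested, Snhg11 not among them. Snhg10 passed the filter only through its lysine samples and was left out of the count. Of the other 8 models, 3 were higher, 1 was lower and 4 did not pass, beside 25.8% higher and 29.3% lower over all genes tested, and the median log2 fold change was 0.39. Zfas1, the antisense host at the Znfx1 gene, rose from 57.7 ± 5.80 to 114 ± 18.8 TPM (log2 difference 0.96 ± 0.13, adjusted p = 0.00111). Snhg16 rose from 6.78 ± 0.933 to 12.6 ± 0.902 TPM (0.80 ± 0.11, adjusted p = 0.00129). Epb41l4aos rose from 47.2 ± 8.23 to 77.9 ± 7.66 TPM (0.72 ± 0.14, adjusted p = 0.0053). The one lower was 1 of 2 models of Snhg4. Snhg10, Snhg11 and Snhg4 were named after their values were seen. Without lysine replicate 3, 2 of these hosts were lower.

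Protein-coding genes that carry snoRNAs in their introns were called in both directions. Of 39 tested, 8 were higher, 5 were lower and 26 did not pass, beside 25.8% higher and 29.3% lower over all genes tested, with a median log2 fold change of 0.01. Many of the 39 are cytosolic ribosomal protein genes, which are counted again in their own list below. Some others recur among the proteins that bind snoRNAs, the ribosomal RNA processing genes or the other 5′TOP genes. The lists are therefore not independent, and the counts and median of the 39 rest in large part on ribosomal protein genes. Hspa8, a constitutive heat shock chaperone, fell from 1806 ± 106 to 589.8 ± 34.2 TPM (log2 difference -1.61 ± 0.07, adjusted p = 2.43e-05). Eif4a1, the RNA helicase of translation initiation, rose from 775 ± 30.3 to 1085 ± 5.98 TPM (0.48 ± 0.05, adjusted p = 0.00034). Dkc1, the pseudouridine synthase of H/ACA particles and itself a host, fell from 9.71 ± 0.831 to 5.03 ± 0.358 TPM (-0.83 ± 0.10, adjusted p = 0.000723). The count of lower genes was 2 or 3 without any of the PBS samples or lysine replicates 1 and 2 and 11 without lysine replicate 3. With median-of-ratios scaling 11 were higher and 4 lower.

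The factors of NMD were measured because the spliced host RNAs are known targets of the pathway. Of 15 factors, 9 were higher, 2 were lower and 4 did not pass, beside 25.8% higher and 29.3% lower over all genes tested, with a median log2 fold change of 0.31. Upf1, the central helicase, rose from 27.6 ± 2.08 to 35.9 ± 2.75 TPM (log2 difference 0.37 ± 0.09, adjusted p = 0.0108). Upf3a, which binds exon junction complexes, rose from 13.9 ± 0.506 to 28.4 ± 2.61 TPM (0.97 ± 0.09, adjusted p = 0.000205). Etf1, the release factor that recognises stop codons, rose from 62.7 ± 1.36 to 103 ± 3.84 TPM (0.71 ± 0.05, adjusted p = 0.000123). Smg5, an adaptor that recruits decay enzymes, rose from 35.9 ± 2.44 to 48.5 ± 3.13 TPM (0.43 ± 0.08, adjusted p = 0.00395). Smg1, the kinase of Upf1, rose from 21.9 ± 0.753 to 26.4 ± 1.48 TPM (0.26 ± 0.07, adjusted p = 0.0202), a call lost without PBS replicate 2 (0.0733) or lysine replicate 1 (0.0694). The fall was largest for Dhx34, a helicase known from human cells to promote the phosphorylation of UPF1, from 11.0 ± 1.32 to 4.48 ± 0.205 TPM (-1.12 ± 0.11, adjusted p = 0.000281). Upf2 and Upf3b, named after their values were seen, were among the others called higher, and Nbas was the second called lower.

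In the exon junction complex, the protein mark left at splice junctions, 3 of 7 genes were higher, 2 were lower and 2 did not pass, with a median log2 fold change of 0.22. The share lower, 28.6%, was near the 29.3% of all genes tested, and the share higher was 42.9% against 25.8%. Rnps1 (0.39 ± 0.06, adjusted p = 0.00149) and Casc3 (0.40 ± 0.07, adjusted p = 0.00375) rose, and Magohb fell from 11.9 ± 1.14 to 5.41 ± 0.495 TPM (-1.01 ± 0.11, adjusted p = 0.000429). Without lysine replicate 2, 1 gene was lower.

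Other RNAs known as NMD targets were set beside the hosts. Among stress genes with such a record, Chac1 passed the filter only through its lysine samples and was left out of the count. Of the other 6 gene models 4 were higher and 2 did not pass, beside 25.8% higher and 29.3% lower over all genes tested, and the median log2 fold change was 1.96. Atf4, the transcription factor of the amino acid and integrated stress response, rose from 155 ± 6.16 to 637 ± 28.6 TPM (log2 difference 2.04 ± 0.06, adjusted p = 6.88e-06). Gadd45b, a growth arrest and stress protein, rose from 81.2 ± 6.85 to 652 ± 116 TPM (2.98 ± 0.14, adjusted p = 3.02e-05). Ddit3, the stress factor CHOP, rose from 61.6 ± 5.23 to 245 ± 24.96 TPM (1.97 ± 0.09, adjusted p = 3.12e-05) in 1 of its 2 gene models. The second model was listed at 0, 283 and 362 TPM in PBS and at 0, 0 and 842 TPM in lysine and did not pass. Chac1 was named after its values were seen. With quantile normalization 1 model was lower.

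In a list of 20 splicing factors, 17 were higher and 3 did not pass, beside 25.8% higher over all genes tested. Their median log2 fold change was 0.61. The list was drawn up for RNAs with a poison exon, an exon that brings in an early stop codon. Whether each listed gene carries one was not checked. Clk1, a kinase of splicing factors, rose from 74.6 ± 2.27 to 235 ± 12.4 TPM (1.64 ± 0.06, adjusted p = 1.55e-05), and its relative Clk4 from 44.6 ± 3.62 to 150.1 ± 8.73 TPM (1.73 ± 0.08, adjusted p = 2.82e-05). Rbm39 rose from 170 ± 1.58 to 399.7 ± 16.5 TPM (1.23 ± 0.05, adjusted p = 2.23e-05). A gene-level TPM does not separate an isoform with an early stop codon from a coding one. In quantile-normalized values and without lysine replicate 2, 1 of these genes was lower.

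**Figure D4:**
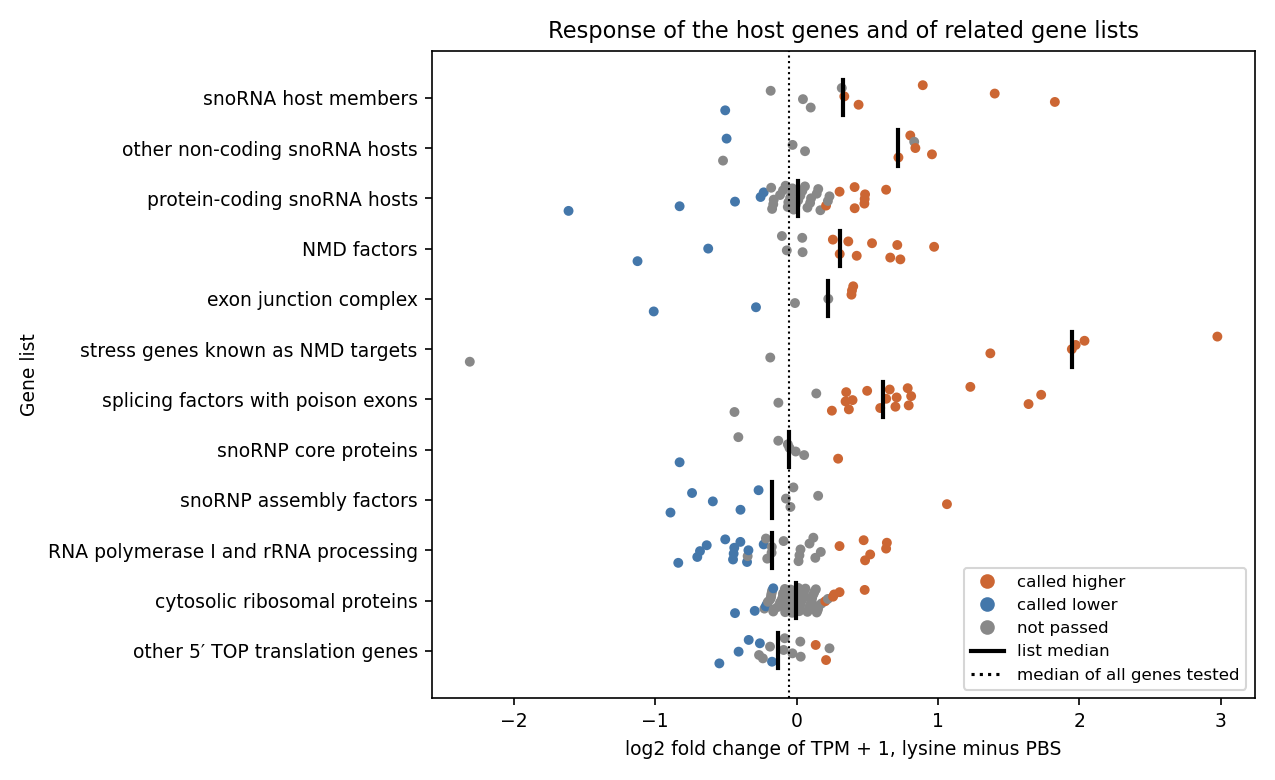
Log2 fold change of TPM + 1, lysine minus PBS, for the host genes and for related gene lists. Each point is a gene, coloured by its limma call, black bars are list medians and the dotted line is the median of all genes tested at -0.05. The medians of the hosts (0.33) and the splicing factors (0.61) lie to the right of the line, the bar of the other non-coding hosts (0.72) includes Snhg10 and stands at 0.39 without it, and that of the cytosolic ribosomal proteins (-0.01) lies close to it.

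The proteins that bind snoRNAs were mostly not called. Of the 8 core proteins of C/D and H/ACA particles, 1 was higher, 1 was lower and 6 did not pass, with a median log2 fold change of -0.06. Dkc1 is the one that fell, with the values above. Nop10, its small H/ACA partner, rose from 50.9 ± 1.58 to 62.6 ± 3.58 TPM (0.29 ± 0.06, adjusted p = 0.00788). Gar1, another H/ACA protein, was at 30.1 ± 3.36 and 22.8 ± 6.01 TPM and did not pass (adjusted p = 0.103). Without lysine replicate 3, 2 of these genes were lower. Of 10 assembly factors, 1 was higher, 5 were lower and 4 did not pass, with a median of -0.17, beside 25.8% higher and 29.3% lower over all genes tested. Nufip1, which brings C/D proteins to the chaperone complex, rose from 6.38 ± 0.265 to 14.4 ± 0.363 TPM (1.06 ± 0.08, adjusted p = 0.000104). Ruvbl2, an ATPase of that complex, fell from 31.6 ± 0.982 to 16.8 ± 3.24 TPM (-0.89 ± 0.14, adjusted p = 0.00183), and Znhit3 fell from 10.1 ± 0.999 to 5.66 ± 0.685 TPM (-0.74 ± 0.12, adjusted p = 0.00207).

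Genes of RNA polymerase I and of ribosomal RNA processing, in which snoRNAs act, were lower in 12 of 31 cases and higher in 6, with 13 that did not pass and a median log2 fold change of -0.18. The shares were 38.7% lower and 19.4% higher, beside 29.3% and 25.8% over all genes tested, and the share called in either direction was close to the 55.1% of all genes. Wdr12 (-0.84 ± 0.09, adjusted p = 0.000564), a large-subunit assembly factor, and Bysl (-0.70 ± 0.09, adjusted p = 0.000982), a small-subunit one, fell. Utp15, a factor of the small-subunit processome, rose (0.64 ± 0.07, adjusted p = 0.000518).

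Most 5′TOP genes, which are known for the pyrimidine start, did not pass the test. Of 79 cytosolic ribosomal protein genes, 5 were higher, 5 were lower and 69 did not pass, with a median log2 fold change of -0.01. The shares were 6.33% higher and 6.33% lower, beside 25.8% and 29.3% over all genes tested. Rpl18 fell (-0.30 ± 0.06, adjusted p = 0.00626), Rps14 fell (-0.21 ± 0.05, adjusted p = 0.00792; adjusted p = 0.132 under quantile normalization) and Rpl35 rose (0.27 ± 0.06, adjusted p = 0.0107). These counts were unstable, with 3 to 9 higher and 3 to 20 lower when 1 sample was left out, the 20 being without lysine replicate 3. Scaling by median of ratios gave 14 higher and 4 lower, and quantile normalization gave 14 and 11. Of 16 other translation genes with a 5′TOP, 2 were higher, 5 were lower and 9 did not pass, with a median of -0.13. The share lower, 31.25%, was near the 29.3% of all genes tested, and the share higher was 12.5% against 25.8%. Hnrnpa1 (-0.55 ± 0.09, adjusted p = 0.0024) and Eif3e (-0.26 ± 0.05, adjusted p = 0.00692) fell, and Tpt1 rose (0.21 ± 0.05, adjusted p = 0.0138), a call lost without PBS replicate 1 (0.0519), without lysine replicate 2 (0.0508) and without the filter (0.153). With 1 sample left out, 0 to 2 were higher and 2 to 7 lower, and quantile normalization gave 1 and 9.

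The genes outside the 10 hosts whose profile lay nearest to the mean profile of the hosts over the 6 samples were Cdv3, Tbc1d2, Gm42863, H3f3a and Tut7. Nearness was the root mean square difference of log2(TPM + 1) after the PBS mean was subtracted, and it was 0.02 for Cdv3 and 0.04 for the other 4. Cdv3 went from 53.8 ± 1.18 to 75.9 ± 5.82 TPM, and Tut7 from 47.4 ± 2.40 to 66.1 ± 4.12 TPM. Among the hosts themselves, Gas5 lay nearest to the mean profile at 0.04 and Snhg12 furthest at 0.97.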

How the data were processed

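RNA was sequenced from 3 PBS and 3 lysine samples. The authors deposited TPM for 55740 gene models, with 2 decimals and a total of 1000000 in each sample. The design text names RSEM for the quantification. Per the submitters' processing notes, HISAT2, StringTie, RSEM and edgeR and the build GRCm38.p6 were used. The sources used here do not give their roles and versions, the annotation release, the use of strand or the RNA selection. Columns marked control and K, the 1-letter code of lysine, were matched by replicate number.

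The members and the gene lists were chosen with earlier results of these data known. Genes that reached 1 TPM in 3 or more samples, 12539 in all, were tested with limma 3.58.1 (R 4.3.3) with an intensity trend on log2(TPM + 1). Benjamini-Hochberg adjustment ran over all genes tested, and an adjusted p under 0.05 was a call. The log scale understates changes of low genes. Summed TPM and ratios were compared by two-sided exact permutation tests, which cannot go below p = 0.1 with 3 against 3 samples. The fit was tested on simulated data with 200 changed genes and independent noise. In these samples far more genes were called, so that test checks the working of the fit and not its error rate here. GENCODE M21 held 52135 of the identifiers (93.5%).

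All members were named. Of each list the 3 tested genes with the smallest adjusted p were named, together with Upf1, Smg1 and Smg5, the neighbours and embedded snoRNAs of each member and the 5 genes nearest to the mean member profile. The alternatives were a pseudocount of 0.1, a filter of 5 TPM, no filter (any value above 0), a replicate block, 3 other scalings, limma without the trend and leaving out each sample. The 3 scalings were median-of-ratios, quantile and protein-coding nuclear totals. Single values of some listed genes are not reported here.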

Additional observations from a re-analysis of the deposited data

How the results depend on the processing

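The direction and call of Gas5, Snhg1, Snhg12, Snhg15 and Snhg20 were the same under all 14 alternatives, and Snhg8 lost its call in 4 of them, as given above. With 1 sample left out, 4 to 5 host genes were called higher and 1 lower, the summed TPM of the hosts differed by 263 to 356, and 1 to 2 of the other non-coding hosts were called lower. With a filter of 5 TPM, 0 of the other non-coding hosts were called lower, since the model of Snhg4 called lower was below that filter (4 hosts tested by limma, 0 lower at an unadjusted p under 0.05). Replicate numbers were shared by the groups, but the labels give them no meaning. The correlation of deviations was 0.171, 0.0920 and 0.245 for the 3 numbered pairs, and 6 of 6 samples correlated best with their own number, which is a hint from the data and not the design. With the replicate block 6 host genes were called higher, Snhg6 being added (adjusted p = 0.00882), and 1 lower. Counts over the related lists moved more. Of the protein-coding hosts, 5 were lower, against 9 with the replicate block, 9 after quantile normalization, 2 without the filter, 3 without the trend and 2 to 11 with 1 sample left out. Of the cytosolic ribosomal protein genes, 5 were higher and 5 lower, against 10 and 13 with the block, 14 and 4 after median-of-ratios scaling, 14 and 11 after quantile normalization and 4 and 3 without the filter. Of the other 5′TOP genes, 2 were higher and 5 lower, against 2 and 8 with the block, 1 and 9 after quantile normalization, 0 and 3 without the filter and 1 and 4 without the trend. With the block 1 stress gene was also lower, and 2 snoRNP core genes were lower against 1. Over the 57 named genes, 776 of 795 values stayed on their side of the threshold, 16 lost a call, 3 gained one, and no called value changed sign. The depth of the libraries is unknown, so counting error could not be given for any value.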
